A study of Mus musculus with 6 samples.

Results

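Osteoclast formation is held back by a set of transcription factors, and the genes of 9 factors that act on it were examined: Bcl6, Irf8, Id1, Id2, Id3, Maf, Klf2 and Klf4, whose products are known to hold it back, and Prdm1, whose product BLIMP1 is known to silence several of such repressors. They were taken by symbol, after Ensembl mouse identifiers were matched to gene names, and are 9 of the 55573 genes with listed counts and 9 of the 16954 genes tested. All 9 passed the filter of at least 10 counts summed over the 6 libraries. The comparison asked how HES1, a Notch target and transcriptional repressor, affects these genes when it is induced in the osteoclast lineage.

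Bone marrow macrophages (BMMs) from 10-week-old male mice were differentiated with M-CSF (30 ng/ml) plus RANKL (10 ng/ml), and mRNA of the whole cultures was sequenced on day 4. The 3 Rosa-Hes1 libraries came from mice with a Cre recombinase in 1 Ctsk allele and a Hes1 transgene in the Rosa locus, from which Cre removes a stop cassette. The 3 control libraries are labelled wild type. In the study's methods these controls are littermates that carry the transgene with its stop cassette in place and no Cre. Because only the Rosa-Hes1 mice carried Cre, its presence and that of HES1 cannot be told apart in this comparison. Ctsk is turned on as precursors become osteoclasts, and Cre is expected mainly from that stage on. Replicates are named as biological in the labels.

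Osteoclasts form when macrophage precursors receive M-CSF and RANKL, and the transcriptional program that RANKL starts has to overcome repressors already present in the precursors. BCL6 sits on osteoclast genes such as Ctsk, Acp5 and Dcstamp and represses them, IRF8 restrains the response of myeloid precursors to RANKL, and MAF belongs to the large MAF proteins that maintain macrophage identity. The ID proteins bind E proteins and other helix-loop-helix factors and keep them from DNA, and KLF2 and KLF4 are zinc finger factors that damp the activation of myeloid cells. BLIMP1 acts in the other direction, since RANKL induces it and it represses Bcl6, Irf8 and other brakes.

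HES proteins bind N boxes and class C sites, and both motifs were searched on both strands in the 250 bases before each RefSeq start site (GRCm38.p6). Of the 9 genes, 7 had such a promoter window, with 9 windows in all, and Id1 and Maf had none in the table used. The class C letters CACGNG lay in 4 of the 9 windows, those of Bcl6, Irf8 (both windows) and Klf4, and in 23.5% of all 32851 windows of this length. The N box letters CACNAG lay in 2 of the 9 windows (Bcl6 and Irf8) and in 36.7% of all windows. The Klf4 window and the more upstream windows of Bcl6 and Irf8 are printed 5′ to 3′ on the gene's strand, with the match in capitals. They were picked because each has a class C match and these 3 genes had lower mean levels in Rosa-Hes1 cells. Id3 and Klf2 also had lower mean levels, and their windows held neither HES motif. Id1 and Maf, lower in mean too, had no window to search. The printed windows span chr16:23988853-23989102 (minus strand) for Bcl6, chr8:120736108-120736357 (plus strand) for Irf8 and chr4:55532476-55532725 (minus strand) for Klf4.
Bcl6: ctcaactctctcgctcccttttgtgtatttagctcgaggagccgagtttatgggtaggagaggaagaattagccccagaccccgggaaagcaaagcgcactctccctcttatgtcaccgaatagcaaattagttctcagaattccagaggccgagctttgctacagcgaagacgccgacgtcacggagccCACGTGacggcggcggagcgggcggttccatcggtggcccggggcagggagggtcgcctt
Irf8: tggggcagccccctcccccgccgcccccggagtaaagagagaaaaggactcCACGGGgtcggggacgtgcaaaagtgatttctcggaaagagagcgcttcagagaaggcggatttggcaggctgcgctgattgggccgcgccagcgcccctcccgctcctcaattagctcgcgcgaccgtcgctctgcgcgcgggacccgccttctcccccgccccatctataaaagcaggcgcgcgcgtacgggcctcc
Klf4: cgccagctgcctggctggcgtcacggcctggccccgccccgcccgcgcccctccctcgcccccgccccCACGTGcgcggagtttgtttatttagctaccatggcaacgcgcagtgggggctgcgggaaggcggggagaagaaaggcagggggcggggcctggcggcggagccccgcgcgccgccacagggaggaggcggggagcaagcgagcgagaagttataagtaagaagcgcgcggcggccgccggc
The capitals begin 60 bases before the start in Bcl6, 199 in Irf8 and 182 in Klf4. In Bcl6 and Klf4 they read CACGTG, which is also the E box bound by other helix-loop-helix factors. The BCL6 letters TTCCNNGAA, found in 4.06% of all windows, lay in the other Bcl6 window and in the printed Irf8 window. That other Bcl6 window also held the gene's N box match. A stretch just after its start was found in no annotated Bcl6 transcript, while every other window had such a match to its gene. The BLIMP1 letters GAAAGTG (4.01% of all windows) and the IRF motif (2.98%) were in no window of these genes. The BMP SMAD letters GGCGCC, found in 9.59% of all windows, lay in the Id2 window. A match describes the letters of a window and is not a site shown to be bound.

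Hes1 checks the labels. Its level, in CPM (counts divided by the TMM-scaled library size, the same for all genes of a library), was 0.517, 0.557 and 0.296 in control libraries 1, 2 and 3, and 4.95, 4.83 and 6.91 in Rosa-Hes1 libraries 1, 2 and 3. Every Rosa-Hes1 library was above every control library, and Hes1 rose by 3.57 on the log2 scale (SE 0.30, adjusted p = 0.00477 by edgeR's quasi-likelihood test with Benjamini-Hochberg adjustment over all tested genes, the test used throughout).

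Bcl6, Irf8, Id1, Id3 and Klf4 had lower levels in every Rosa-Hes1 library than in any control library, and Id2 had a higher level in every Rosa-Hes1 library. Maf, Klf2 and Prdm1 overlapped between the groups. None of the 9 differences passed the adjusted threshold of 0.05 in edgeR, where 8.25% of all tested genes did (5.85% higher and 2.41% lower), and the smallest adjusted p was 0.0614, for Id1. At an unadjusted p under 0.05 the count was 6 of 9, with 5 lower and 1 higher, against 25.7% of all tested genes (11.4% lower and 14.3% higher). DESeq2 called 3 of 9 (Irf8, Id1 and Klf4, all lower). It called 18.1% (7.29% lower) of the 12019 genes to which it gave an adjusted p, fewer genes than the other tests covered. Limma-voom with quality weights called 0 of 9, where it called 13.5% of all tested genes. Groups that did not overlap were found for 31.2% of all tested genes, 14.5% lower and 16.6% higher. Of the 9 log2 fold changes, 7 were below 0, as were 51.4% of those of all tested genes, and the median was -0.25 for the 9 genes and -0.01 for all tested genes. The paper had reported Bcl6, Irf8 and Id1 as decreased and Blimp1 (Prdm1) as unaffected in its RNA-Seq. Because the 9 genes were chosen with earlier results of these data known, these counts describe the set and cannot serve as a test of it.

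**Figure D1:**
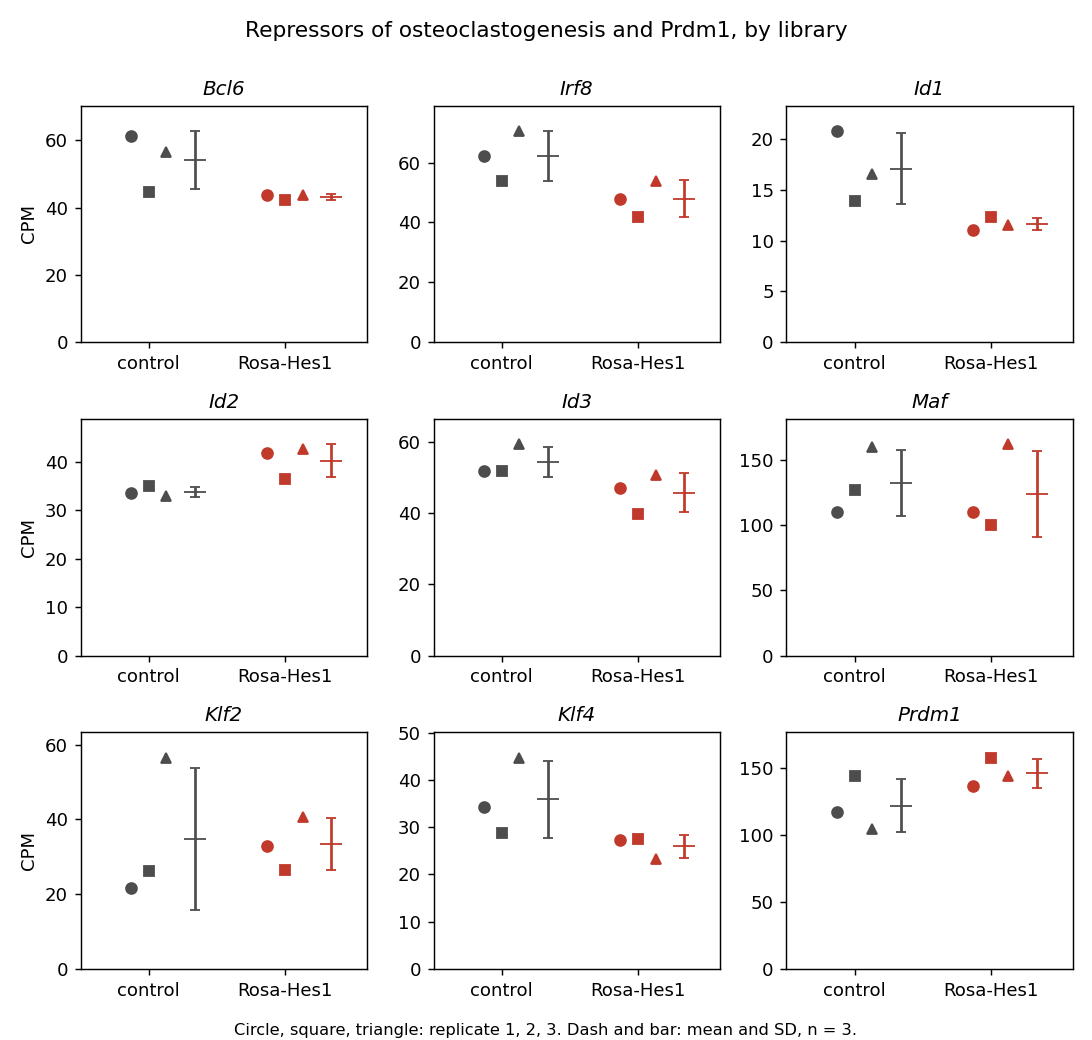
Level of each of the 9 genes in CPM, with control libraries in gray and Rosa-Hes1 libraries in red, circles, squares and triangles for replicates 1, 2 and 3, and the mean with SD (n = 3) beside them. The groups stand apart in Bcl6, Irf8, Id1, Id2, Id3 and Klf4, narrowly so in all of these but Id1 and most narrowly in Irf8. They overlap in Maf, Klf2 and Prdm1.

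Bcl6, the zinc finger repressor of osteoclast genes (chromosome 16, 23965052 to 23988852, minus strand, GRCm38), had 61.4, 44.7 and 56.5 CPM in controls and 43.9, 42.2 and 43.7 CPM in Rosa-Hes1 libraries. The Rosa-Hes1 libraries were almost level with each other, while control replicate 2 stood close to them and well below the other controls. Means were 54.2 ± 8.59 and 43.3 ± 0.903 CPM (SD, n = 3), and the fitted ratio was 0.799 (95% interval 0.668 to 0.955), a log2 fold change of -0.32 (SE 0.11, adjusted p = 0.113 in edgeR). With 1 library left out, edgeR's log2 fold change of Bcl6 ranged from -0.23 without control replicate 1 (adjusted p = 0.321) to -0.45 without control replicate 2 (adjusted p = 0.029), and the other adjusted p were 0.183 to 0.264.

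Irf8, the interferon regulatory factor that restrains osteoclast formation in myeloid precursors (chromosome 8, 120736358 to 120756694, plus strand), had 62.2, 54.0 and 70.5 CPM in controls and 47.9, 41.7 and 54.0 CPM in Rosa-Hes1 libraries. The groups all but met, with control replicate 2 and Rosa-Hes1 replicate 3 at the same rounded level. The fitted ratio was 0.769 (95% interval 0.634 to 0.933), a log2 fold change of -0.38 (SE 0.12, adjusted p = 0.0925 in edgeR and 0.0389 in DESeq2). With 1 library left out, edgeR's adjusted p for Irf8 was 0.0791 to 0.241.

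Prdm1, which encodes BLIMP1 (chromosome 10, 44437177 to 44528501, minus strand), had 117, 144 and 105 CPM in controls and 137, 158 and 144 CPM in Rosa-Hes1 libraries. Control replicate 2 lay within the Rosa-Hes1 range, and the other controls lay below it. Means were 122 ± 20.0 and 146 ± 10.6 CPM, with a fitted ratio of 1.20 (95% interval 0.997 to 1.44), a log2 fold change of 0.26 (SE 0.12) and an adjusted p of 0.202 in edgeR. The interval reached from no difference to an increase of 1.44 times. The log2 fold change was 0.40 without control replicate 2 and 0.16 without control replicate 3.

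The control library with the lowest Bcl6 and Irf8, replicate 2, was also the control with the most Prdm1. The same library had the highest sum of the osteoclast markers described further on among controls. That sum was 15400 CPM, against 12100 CPM in control replicate 1 and 14300 CPM in control replicate 3. Per kilobase of exon, the ratio of Prdm1 to Bcl6 was 2.29, 3.87 and 2.23 in controls and 3.74, 4.48 and 3.97 in Rosa-Hes1 libraries. Control replicate 2 therefore lay among the Rosa-Hes1 libraries in this ratio, and the other controls lay below. The ratio of Prdm1 to Irf8 was 2.38, 3.37 and 1.88 in controls and 3.61, 4.78 and 3.38 in Rosa-Hes1 libraries, which just cleared the highest control. These ratios were chosen after the values had been seen and are descriptions with no test.

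The ID genes encode proteins that lack a DNA-binding region and trap E proteins, and their levels differed in direction. Id1 (chromosome 2, 152736251 to 152737410, plus strand) had 20.8, 13.9 and 16.6 CPM in controls and 11.1, 12.3 and 11.5 CPM in Rosa-Hes1 libraries. The Rosa-Hes1 libraries were close together and below all controls, which spread widely around control replicate 1 as the highest. Means were 17.1 ± 3.50 and 11.7 ± 0.611 CPM, and the fitted ratio of 0.684 (95% interval 0.538 to 0.869) was the lowest of the 9 genes, a log2 fold change of -0.55 (SE 0.15, adjusted p = 0.0614 in edgeR and 0.0241 in DESeq2). With 1 library left out, edgeR's adjusted p for Id1 was 0.0379 without control replicate 2 and 0.0665 to 0.206 without each of the others. It is also the gene of the 9 with the fewest counts, 158 to 282 per library, where Prdm1 had 1420 to 2415.

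Id3 (chromosome 4, 136143497 to 136145755, plus strand) had 51.9, 52.0 and 59.4 CPM in controls and 47.0, 39.8 and 50.7 CPM in Rosa-Hes1 libraries. The groups were separate by a narrow gap, with Rosa-Hes1 replicate 3 just under the controls. The fitted ratio was 0.842 (95% interval 0.715 to 0.992), a log2 fold change of -0.25 (SE 0.10, adjusted p = 0.176 in edgeR), and the log2 fold change was -0.16 without Rosa-Hes1 replicate 2.

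Id2 (chromosome 12, 25093799 to 25097140, minus strand) had 33.6, 34.9 and 32.8 CPM in controls and 41.7, 36.3 and 42.5 CPM in Rosa-Hes1 libraries. The controls were the tightest group of any of the 9 genes, apart from Bcl6 in Rosa-Hes1 cells, and Rosa-Hes1 replicate 2 was the closest to them. The fitted ratio was 1.19 (95% interval 1.04 to 1.36), a log2 fold change of 0.25 (SE 0.09, adjusted p = 0.107 in edgeR). Without Rosa-Hes1 replicate 2 the log2 fold change was 0.32 with an adjusted p of 0.0265 in edgeR, and without each of the other libraries edgeR's adjusted p for Id2 was 0.177 to 0.288.

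The sums of the 3 ID genes overlapped between the groups, with 106, 101 and 109 CPM in controls and 99.8, 88.4 and 105 CPM in Rosa-Hes1 libraries. Their mix was less alike. Per kilobase of exon, Id2 made up 22.7, 25.9 and 22.1% of the ID sum in controls and 32.3, 31.2 and 31.3% in Rosa-Hes1 libraries, with no overlap. Id1 made up 29.6, 21.6 and 23.4% in controls and 18.2, 22.3 and 17.8% in Rosa-Hes1 libraries, where replicate 2 exceeded control replicate 2. The ratio of Id2 to Id1 was 0.768, 1.20 and 0.943 in controls and 1.78, 1.40 and 1.76 in Rosa-Hes1 libraries, again a comparison chosen after the values had been seen and given with no test.

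**Figure D2:**
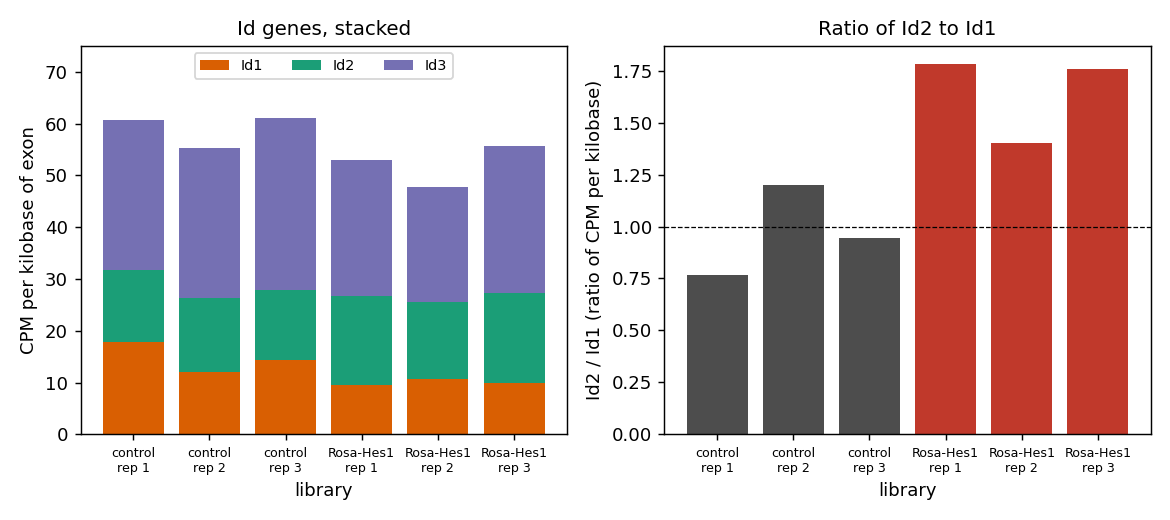
Left, stacked levels of Id1, Id2 and Id3 in each library in CPM per kilobase of exon, and right, the ratio of Id2 to Id1 in the same unit, with controls in gray, Rosa-Hes1 libraries in red and a dashed line at equal levels. The ratio is 1.40 to 1.78 in Rosa-Hes1 libraries and 0.768 to 1.20 in controls.

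Klf4, a zinc finger factor of the monocyte lineage (chromosome 4, 55527143 to 55532466, minus strand), had 34.2, 28.7 and 44.7 CPM in controls and 27.2, 27.5 and 23.2 CPM in Rosa-Hes1 libraries. All Rosa-Hes1 libraries were below all controls, and control replicate 2 came within a small gap of them. Means were 35.9 ± 8.14 and 26.0 ± 2.41 CPM, with a fitted ratio of 0.725 (95% interval 0.564 to 0.932) and a log2 fold change of -0.46 (SE 0.16, adjusted p = 0.109 in edgeR and 0.043 in DESeq2). Control replicate 3, the highest, carried much of this size, since without it the log2 fold change was -0.27 (edgeR adjusted p = 0.232).

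Its relative Klf2, which keeps leukocytes quiescent (chromosome 8, 72319033 to 72321656, plus strand), had 21.6, 26.2 and 56.5 CPM in controls and 33.0, 26.5 and 40.5 CPM in Rosa-Hes1 libraries. Control replicate 3 was 2.61 times control replicate 1, the widest spread within a group among the 9 genes, and all Rosa-Hes1 libraries lay within the control range. The log2 fold change was -0.06 (SE 0.39, adjusted p = 0.951 in edgeR), and the 95% interval of the ratio, 0.487 to 1.89, holds sizable differences in either direction. The log2 fold change was 0.48 without control replicate 3, and it was also above 0 without Rosa-Hes1 replicate 2 (0.08) and in limma-voom (0.11).

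Maf, the gene for c-MAF (chromosome 8, 115682942 to 115707794, minus strand), had 110, 127 and 160 CPM in controls and 110, 100 and 162 CPM in Rosa-Hes1 libraries. The groups covered nearly the same range, each with replicate 3 as its highest library. The fitted ratio was 0.936 (95% interval 0.664 to 1.32), a log2 fold change of -0.10 (SE 0.21, adjusted p = 0.83 in edgeR). Its direction rested on single libraries, since it was 0.064 when control replicate 3 was left out and 0.04 when Rosa-Hes1 replicate 2 was.

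**Figure D3:**
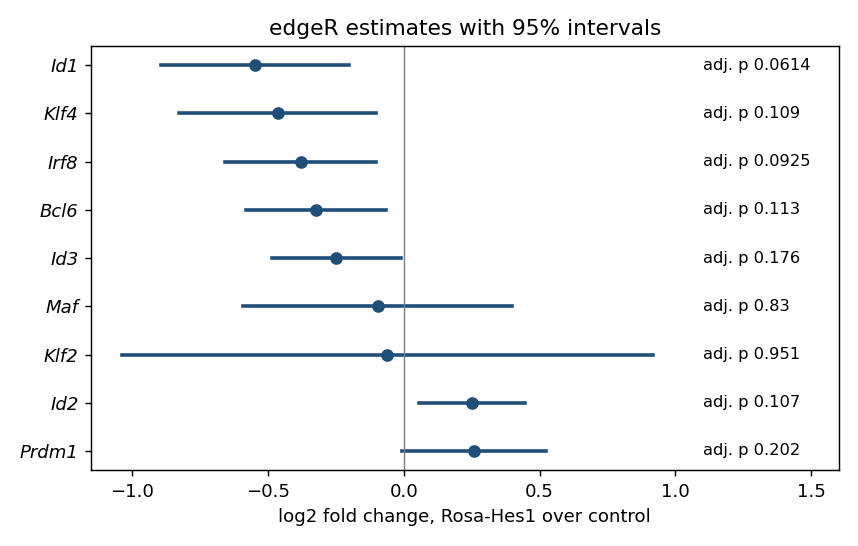
Log2 fold change of each gene, Rosa-Hes1 over control, from edgeR (point) with its 95% interval (line) and adjusted p beside it. The intervals of Id1, Klf4, Irf8, Bcl6 and Id3 lie below 0, that of Id2 lies above 0, those of Maf, Klf2 and Prdm1 cross it, and every adjusted p is at least 0.0614.

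**Figure D4:**
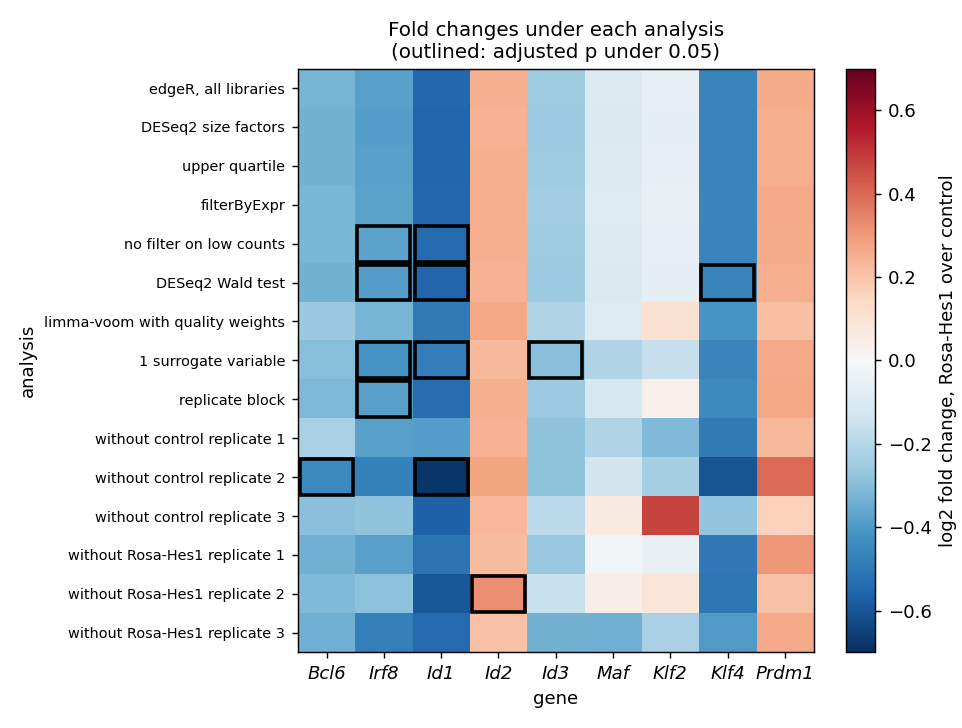
Color scale of the log2 fold change of each gene (columns) under each analysis (rows), with outlines where the adjusted p was under 0.05. Bcl6, Irf8, Id1, Id3 and Klf4 are below 0 and Id2 and Prdm1 above 0 in every row, while Maf and Klf2 change sign and the outlines move between rows.

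Levels of different genes were compared per kilobase of merged exon, in CPM per kilobase. In controls the order was Id3 at 30.4 ± 2.40, Prdm1 at 21.9 ± 3.58, Klf2 at 18.8 ± 10.3, Maf at 16.1 ± 3.10, Id1 at 14.7 ± 3.02, Id2 at 13.8 ± 0.419, Klf4 at 11.8 ± 2.67, Irf8 at 8.82 ± 1.16 and Bcl6 at 8.09 ± 1.28 (SD, n = 3). Only the step from Id3 to Prdm1 was free of overlap between neighbouring ranges, and Prdm1 overlapped Klf2, so most steps in this order are within the spread of the libraries. In Rosa-Hes1 libraries Prdm1 (26.2 ± 1.9) and Id3 (25.6 ± 3.10) overlapped at the top, Klf2 (18.0 ± 3.79), Id2 (16.5 ± 1.39) and Maf (15.0 ± 4.01) followed, Id1 (10.0 ± 0.527) and Klf4 (8.52 ± 0.791) were next, and Irf8 (6.78 ± 0.873) and Bcl6 (6.46 ± 0.135) were again the lowest. Neighbours without overlap there were Id3 and Klf2, Maf and Id1, and Id1 and Klf4. Over all 6 libraries Id3 stood at percentile 87 of the tested genes in level per kilobase and Bcl6 at percentile 62.4.

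The genes whose levels moved most like those of the 9 across the 6 libraries were looked up among 9097 genes of at least 10 CPM, by Pearson's r of log2 CPM. With so many candidates and so few libraries high values are reached for every gene, and the r are descriptions. Bcl6 was closest to C5ar1, the complement C5a receptor (r = 0.987), and Agtpbp1 (r = 0.983). Irf8 was closest to Mctp1 (r = 0.998) and Stat5b (r = 0.997), a cytokine signal transducer. Id1 was nearest to H2-K1 (r = 0.990), a class I histocompatibility gene, and Zw10 (r = 0.988), and Id2 to Trip10 (r = 0.994) and Sptlc2 (r = 0.993). For Id3 these were Stk3 (r = 0.992) and Dhdh (r = 0.991), for Klf4 Sulf2 (r = 0.987) and Tmem43 (r = 0.987), and for Prdm1 Sco1 (r = 0.998) and Stard7 (r = 0.984). Klf2 followed 6430548M08Rik (r = 0.992) and Clec10a (r = 0.990), a macrophage lectin, and Maf followed Sppl2a (r = 0.986) and Bmp2k (r = 0.986).

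Among genes reported to be regulated by these factors, the list of BCL6 targets in osteoclasts held 2 calls. All 3 of its genes are also among the 14 osteoclast markers described further on, and their rises are not separate from those. Of the 3, Acp5, which encodes the tartrate-resistant acid phosphatase, rose by 0.74 on the log2 scale (SE 0.11, adjusted p = 0.00917) and Dcstamp, needed for cell fusion, rose by 1.05 (SE 0.19, adjusted p = 0.0222), both in edgeR. Ctsk, the collagen-degrading cathepsin, had 3146 ± 383 CPM in controls and 3329 ± 340 CPM in Rosa-Hes1 cells (log2 fold change 0.08, edgeR adjusted p = 0.709), and its locus carries Cre in the latter. Acp5 lost its call without Rosa-Hes1 replicate 1 (adjusted p = 0.0536), and Dcstamp with control replicate 3 left out (0.0782), or with either Rosa-Hes1 replicate 1 (0.075) or 3 (0.0675) left out.

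The BLIMP1 list had 6 tested targets, 3 of which (Bcl6, Irf8 and Id3) are among the 9 genes. Myc, the growth regulator, was the single gene called in it by edgeR and fell by 0.39 on the log2 scale (from 199 ± 7.09 to 153 ± 13.1 CPM, adjusted p = 0.0224), and 5 of the 6 log2 fold changes were below 0. Its call was lost with any library left out except Rosa-Hes1 replicate 2, with adjusted p up to 0.0851. None of 10 IRF8 targets in macrophages was called by edgeR, with 3 at an unadjusted p under 0.05 (2 higher, 1 lower), 2 called by DESeq2 and 0 by limma-voom. None of 9 MAF targets, Maf itself among them, was called by edgeR, DESeq2 or limma-voom, and 0 had an unadjusted p under 0.05. Of 7 targets of KLF2 and KLF4 only Itgb7, an integrin subunit of leukocyte homing that KLF2 is known to repress, was called, with 41.9 ± 3.99 CPM in controls and 106 ± 16.2 CPM in Rosa-Hes1 cells (log2 fold change 1.34, edgeR adjusted p = 0.00513), and it was called with each library left out.

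Upstream of the ID genes, none of 17 tested genes of BMP and SMAD signaling was called by edgeR, while 3 were lower at an unadjusted p under 0.05 and DESeq2 and limma-voom each called 1 lower. In the MEK5 and ERK5 pathway upstream of Klf2 and Klf4, 1 of 7 genes was called by edgeR, the transcription factor gene Mef2c, which fell from 24.9 ± 1.30 to 19.5 ± 0.257 CPM (log2 fold change -0.35, adjusted p = 0.0402). Of 26 partners and corepressors, Etv6, an ETS family repressor, was the single call in edgeR and fell by 0.35 on the log2 scale (adjusted p = 0.0326). The calls of Mef2c and Etv6 were both lost with any library left out except Rosa-Hes1 replicate 2, with adjusted p up to 0.141 and 0.13, and with the replicate number as a block (0.0734 and 0.0561).

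A list of 8 chromatin enzymes reported to silence Irf8 and other repressors included 1 higher and 1 lower call in edgeR. DESeq2 called 1 higher and 3 lower, limma-voom 1 higher and 4 lower, and 2 were higher and 4 lower at an unadjusted p under 0.05 in edgeR. The de novo DNA methyltransferase gene Dnmt3a rose from 417 ± 47.5 to 748.5 ± 122 CPM (log2 fold change 0.84, SE 0.13, adjusted p = 0.0104 in edgeR). The histone methyltransferase gene Ezh2 fell from 79.8 ± 3.17 to 56.0 ± 9.08 CPM (log2 fold change -0.51, SE 0.11, adjusted p = 0.029 in edgeR). Dnmt3a missed the threshold only without control replicate 3 (adjusted p = 0.0514), and Ezh2 kept its call only without Rosa-Hes1 replicate 2, with adjusted p up to 0.122 otherwise. Besides Ezh2, the genes lower at an unadjusted p under 0.05 were Eed (log2 fold change -0.23) and Suz12 (-0.23), which belong to the same Polycomb complex, and the maintenance methyltransferase gene Dnmt1 (-0.32), with adjusted p of 0.0806, 0.0724 and 0.0843 in edgeR. These 3 were named after their values were seen. The median of the 8 log2 fold changes was -0.16, and 6 of them were below 0.

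Of 30 tested relatives of the 9 genes in their own families, 3 were called by edgeR, against 8.25% of all tested genes. Klf9 rose from 5.50 ± 0.561 to 11.5 ± 3.57 CPM (log2 fold change 1.06, adjusted p = 0.0256), and Maff, a small MAF protein gene, rose by 0.56 on the log2 scale (adjusted p = 0.0449). Irf5, which drives inflammatory genes in macrophages, fell from 203 ± 13.7 to 158 ± 7.03 CPM (log2 fold change -0.36, adjusted p = 0.0226). Klf9 and Maff kept their calls only without Rosa-Hes1 replicate 2 (otherwise up to 0.098 and 0.169), and Irf5 without control replicate 2 or Rosa-Hes1 replicate 2 (otherwise up to 0.109).

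Other reported brakes on osteoclastogenesis did not move in 1 direction. Of 18 tested, edgeR called 4 higher and 1 lower, and the median log2 fold change was -0.04. Tnfaip3, which encodes the A20 inhibitor of NF-κB, rose from 79.2 ± 9.49 to 114 ± 9.56 CPM (log2 fold change 0.53, adjusted p = 0.0193). Cyld, a deubiquitinase, rose by 0.34 on the log2 scale (adjusted p = 0.0492), Bach2 by 0.94 (adjusted p = 0.0208) and Tsc22d3, the glucocorticoid-induced leucine zipper gene, by 0.79 (adjusted p = 0.0226), all in edgeR. Pparg, a nuclear receptor also reported to promote osteoclast formation, fell from 7.62 ± 0.499 to 3.98 ± 0.700 CPM (log2 fold change -0.93, adjusted p = 0.0168 in edgeR). All 5 calls held without Rosa-Hes1 replicate 2, and each was lost without replicate 1 of either group or replicate 3 of Rosa-Hes1, with adjusted p up to 0.0829 for Tnfaip3, 0.169 for Cyld, 0.0889 for Bach2, 0.0923 for Tsc22d3 and 0.0794 for Pparg. Without control replicate 2, Bach2 (0.0571), Tsc22d3 (0.0689) and Cyld (0.0741) also missed the threshold, and without control replicate 3 all but Tsc22d3 did.

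Markers of the cells in the cultures were set beside these values, because in bulk RNA fewer cells of a type and less RNA per cell cannot be told apart. All 14 osteoclast markers passed the count filter, 11 were called higher by edgeR and none lower, and their median log2 fold change was 0.73. Their summed level was 12100 to 15400 CPM in controls and 19400 to 22700 CPM in Rosa-Hes1 libraries. The 4 with the smallest adjusted p were Tcirg1 and Atp6v0d2 of the proton pump, the chloride transporter gene Clcn7 and the integrin gene Itgb3, which rose by 0.62, 0.72, 1.08 and 0.78 on the log2 scale (adjusted p = 0.0055, 0.00758, 0.00659 and 0.00566 in edgeR), and they were called with each library left out. The 14 macrophage and monocyte markers summed to 7840 to 9560 CPM in controls and 7410 to 8960 CPM in Rosa-Hes1 libraries, so their ranges overlapped. Among them edgeR called Cd68, which rose by 0.52 (adjusted p = 0.0142), and Cx3cr1, the fractalkine receptor gene, which fell by 0.50 (adjusted p = 0.0404). Cd68 lost its call without replicate 1 of control (0.0605) or Rosa-Hes1 (0.0693), or replicate 3 of Rosa-Hes1 (0.0511), and Cx3cr1 kept it only without control replicate 2 (up to 0.133 otherwise). The part of the osteoclast markers in the lower Bcl6, Irf8, Id1, Id3 and Klf4 levels was not tested.

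Markers of other cells gave few calls. Of 12 dendritic cell markers edgeR called Itgax higher (log2 fold change 0.82, adjusted p = 0.0178), and of 6 endothelial markers Vwf (2.12, adjusted p = 0.00795). Of 10 B cell and plasma cell markers, of interest because Bcl6 and Prdm1 govern those cells, 5 were under the count filter, Ms4a1 and Pax5 among them, and Sdc1 was called higher (0.39, adjusted p = 0.0345). Itgax kept its call only without replicate 2 of either group (adjusted p up to 0.0691 otherwise) and Sdc1 only without Rosa-Hes1 replicate 2 (up to 0.133 otherwise), while Vwf was called with each library left out. T and NK cell markers summed to 4.49 to 9.22 CPM with Cd3e and Cd3g at 0 in all libraries. EdgeR called 0 of 4 T and NK cell, 0 of 10 neutrophil and 0 of 9 osteoblast and stroma markers, with 0, 1 and 0 at an unadjusted p under 0.05 and 0 called by DESeq2 or limma-voom. Neutrophil markers summed to 262 to 525 CPM in controls and 248 to 350 CPM in Rosa-Hes1 libraries, and osteoblast and stroma markers to 194 to 545 and 119 to 409 CPM. Klf2 and Klf4 can be induced early by many stimuli, and of 15 immediate early genes edgeR called Fos, which fell by 0.35 on the log2 scale (adjusted p = 0.046). Fos kept its call only without Rosa-Hes1 replicate 2 (up to 0.134 otherwise), and the summed levels of the 15 genes were 851 to 939 CPM in controls and 800 to 866 CPM in Rosa-Hes1 libraries.

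Library depth was 13038362 to 15956331 counts in genes. On the leading principal component, with 47.2% of the variance, controls scored -34.2 to -14.4 and Rosa-Hes1 libraries 3.73 to 30.5, with Rosa-Hes1 replicate 2 the nearest to the controls. This library was the lowest Rosa-Hes1 library for 6 of the 9 genes, and control replicate 3 was the highest control for 5 of the 9.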

How the data were processed

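The authors deposited whole-number counts per Ensembl mouse gene with no normalization, per the labels and the study's methods made by trimming, HISAT2 2.1.0 alignment, SAMtools 1.9, Picard removal of duplicates and HTSeq counting (GRCm38 in the submitters' processing notes). The libraries were stranded, but whether counting used strand is not given in the sources used here. Reads outside genes (17.38 to 18.09% of reads) and ambiguous reads (5.511 to 6.073%) stayed out of library sizes.

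The main test was edgeR 4.0.16 (R 4.3.3) quasi-likelihood with TMM, robust dispersions, no covariate, genes with at least 10 summed counts and Benjamini-Hochberg adjusted p under 0.05. The biological coefficient of variation was 0.124. The study used DESeq2 with unnamed covariates, and DESeq2 1.42.0, limma 3.58.1 (voom), sva 3.50.0 and other settings were alternatives. CPM per kilobase used merged exon lengths. A two-sided exact permutation test of 3 against 3 cannot reach a p of 0.05 and was not used. The genes overlapping Bcl6, Irf8 and Maf had 0 counts.

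The 9 genes and all lists were chosen with earlier results of these data known. Named were the 9 genes, Hes1, from each list every called gene (the 4 with the smallest adjusted p where over 5 were called), and the 2 genes most like each of the 9. Some repressors and targets are not reported here.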

Additional observations from a re-analysis of the deposited data

How the results depend on the processing

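The count of genes called lower, 0 of 9 in edgeR, became 2 with no filter on low counts (Irf8 and Id1, with 7.84% of all genes called). It became 3 with DESeq2's Wald test (Irf8, Id1 and Klf4, with 18.1% of the 12019 genes given an adjusted p). It also became 3 with 1 surrogate variable (Irf8, Id1 and Id3, 13.4%), against 8.25% in the main test. It stayed 0 with DESeq2 size factors, upper quartile scaling, filterByExpr and limma-voom (8.29, 8.76, 11.8 and 13.5%). With 1 library left out it ranged from 0 to 2 (Bcl6 and Id1 without control replicate 2, 4.94%), and the count of genes called higher, 0 of 9, from 0 to 1 (Id2 without Rosa-Hes1 replicate 2, 16.1%). The other leave-outs called 1.61 to 3.14% of all genes. With the replicate number as a block, 1 gene was called lower (Irf8, adjusted p = 0.0363) and 0 higher, and 1050 of all genes were called (6.19%) against 1399 without the block. Whether same-numbered libraries form pairs is not given in the labels. Deviations from the group means correlated at 0.0168, -0.174 and 0.39 for same-numbered libraries and at -0.488 to 0.479 for the others. With 3 libraries in a group these deviations sum to 0 for each gene, so the correlations cannot decide whether the samples were paired.

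Over the 14 alternatives the log2 fold changes of Bcl6 (-0.45 to -0.23), Irf8 (-0.48 to -0.28), Id1 (-0.68 to -0.38), Id3 (-0.33 to -0.16), Klf4 (-0.60 to -0.27), Id2 (0.20 to 0.32) and Prdm1 (0.16 to 0.40) kept their sign. Maf (-0.34 to 0.064 with a library left out) reversed to 0.064 without control replicate 3, and to 0.04 when Rosa-Hes1 replicate 2 was left out. Klf2 (-0.31 to 0.48 with a library left out) reversed to 0.11 with limma-voom, 0.035 with the replicate block, 0.48 without control replicate 3 and 0.08 when Rosa-Hes1 replicate 2 was left out. The cause was not tested. Of the 26 other genes called and named from the lists, 9, 15 and 9 kept their call without control replicates 1, 2 and 3, and 7, 25 and 8 without Rosa-Hes1 replicates 1, 2 and 3. The block ended 6 calls (adjusted p for Mef2c 0.0734, Etv6 0.0561, Maff 0.0782, Cyld 0.0875, Sdc1 0.0602 and Fos 0.0569). Dcstamp missed the threshold with no filter on low counts (0.0882), Cyld with DESeq2 size factors (0.0522) and Cx3cr1 with limma-voom (0.0512).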
